A study of Macaca mulatta with 16 samples.

Results

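The acute response of the fetal rhesus macaque lung to intraamniotic lipopolysaccharide (LPS) was described from 8 of the 16 animals sequenced. The 4 exposed animals, 026, 029, 035 and 038, were those labelled as given 1 mg of LPS with 16 hours between treatment and delivery, and the 4 preterm controls, 092, 101, 113 and 209, were those with no treatment that were delivered at 131 to 135 days of gestation. The rule used only the labels and no measured value.

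The study asked how prenatal inflammation, alone or with maternal steroid, changes the maturation of the preterm lung, and the 16 hour animals give its early time point. LPS from E. coli O55:B5 was injected into the amniotic sac of time-mated dams at 129 or 130 days, and the fetuses were delivered at 130 or 131 days. Preterm controls received no injection of any kind and were delivered at 131, 133, 135 and 135 days, so the injection itself and the LPS cannot be told apart. Besides these 8 animals the series holds 2 term controls, 3 animals given 1 mg of LPS and delivered after 5 days (LPS 5d), and 3 given the same LPS with intramuscular betamethasone acetate at 0.125 mg/kg. Poly(A) RNA from the frozen left lung of each fetus gave 1 library per animal.

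LPS is a cell wall lipid of Gram-negative bacteria. CD14 and LBP present it to the receptor complex of TLR4 and LY96 (MD-2), which signals through MYD88 to the transcription factor NF-kB, and NF-kB in turn drives chemokines, cytokines and its own inhibitors. The fetus breathes and swallows amniotic fluid, so LPS placed in the amniotic sac reaches the airway surface directly. At this stage the rhesus lung is still dividing its airspaces, laying down elastin in the mesenchyme and beginning to make surfactant in alveolar type 2 cells, while flat alveolar type 1 cells line the future gas exchange surface.

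Levels are given as CPM, counts scaled to a common library total after each total was multiplied by its TMM factor (trimmed mean of M values). These factors were 0.86 to 0.921 in the exposed libraries and 0.994 to 1.07 in the controls. Within 1 gene, levels can be compared between animals but not with another gene's, since transcript length was not removed. Values of the exposed animals are always in the order 026, 029, 035 and 038, and those of the controls in the order 092, 101, 113 and 209. Differences are log2 fold changes of LPS 16h over preterm control with a standard error (SE), and p-values are adjusted over all genes tested. A gene is said to have risen or fallen where the adjusted p was below 0.05 and the change at least 2-fold. Because each library is a piece of whole lung, more cells of a type and more RNA per cell cannot be told apart in any result that follows. Gene groups are 27 pathway lists and 11 marker lists of 845 symbols, of which 803 matched the table and 783 passed the filter on low counts and were tested.

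At 16 hours after LPS the lung transcriptome had moved widely. Of 19199 genes tested, 1583 rose (8.25%) and 1174 fell (6.11%), and 2757 genes changed in all (14.4%). Counts of list members that rose or fell are to be read against these shares. In 33.8% of the genes tested the exposed animals and the controls did not overlap. The rises were much the larger. 328 genes rose by at least 8-fold and 102 by at least 32-fold, whereas 16 fell by at least 8-fold and 1 by at least 32-fold. Of the genes that rose, 142 averaged under 4 counts in the controls, so part of these tallies rests on folds with no stable value. The first principal component of the 8 libraries held 55.8% of their variance and set the 4 exposed animals, at 59.2 to 77.8, apart from the 4 controls, at -73.3 to -61.1. Lung identity was present in every library, with SFTPC, the surfactant protein made only by type 2 cells, at 5690, 6909, 4110 and 1797 CPM in the exposed animals and 2132, 2064, 4111 and 3473 CPM in the controls.

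The 4 exposed libraries were deeper than the other 12, with 30596371 to 48052891 counts against 20169363 to 28348816, and the labels name no sequencing run. When every library was thinned at random to the smallest total, an alternative chosen after seeing the data, 1552 genes rose and 1132 fell, and 2570 of these were among the 2757. Summed Y-linked transcripts stood at 881 and 1021 CPM in exposed animals 026 and 029 and at 884 to 912 CPM in controls 092, 101 and 113, but at 15.6 and 3.52 CPM in 035 and 038 and 2.04 CPM in control 209. With only the 2 exposed and 3 control animals rich in them, again chosen after seeing the data, 1413 genes rose and 874 fell. The study counts 2 male and 2 female fetuses in the 16 hour group and does not give the sex of each animal. The split between rises and falls depended on scaling. Scaling by total count alone lowered the median log2 fold change of all genes from -0.09 to -0.29 and gave 1258 rises and 1936 falls.

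Among genes with a symbol and an average of at least 4 counts in the controls, the largest rise on the log2 scale with a prior count of 2 was that of CXCL8, which encodes interleukin 8, the main chemoattractant of neutrophils. It stood at 613, 445, 333 and 914 CPM in the exposed animals and at 0.261, 0.0463, 0.106 and 0.401 CPM in the controls, a log2 fold change of 11.14 (SE 0.46, adjusted p = 5.14e-10). Every exposed animal was far above every control, and animal 038 was the highest. IL1B, the interleukin 1β precursor, stood at 1176, 913, 778 and 1639 CPM against 1.78, 0.602, 1.14 and 0.765 CPM, a log2 fold change of 10 (SE 0.51, adjusted p = 3.88e-09), with 038 again highest. CCL20, a chemokine that epithelium releases to draw dendritic cells and lymphocytes, stood at 674, 1987, 694 and 2410 CPM against 1.70, 3.84, 0.213 and 4.77 CPM, a log2 fold change of 9.45 (SE 0.82, adjusted p = 1.39e-06). The exposed values of CCL20 spread over a wide range, yet their lowest lay far above the highest control. Without control 113 its log2 fold change was 8.57.

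The other 12 of the 15 largest rises chosen in that way were of varied function. The chemokines CXCL10 and CXCL1 had log2 fold changes of 8.43 and 7.95. LCN2, which withholds iron from bacteria by binding siderophores, stood at 2038, 2274, 2210 and 1847 CPM against 9.53, 5.05, 5.68 and 12.1 CPM, a log2 fold change of 8.09 (SE 0.33, adjusted p = 5.14e-10). S100A9 and S100A8, the 2 chains of calprotectin, rose by 7.79 and 7.68, MMP9 (gelatinase B) by 8.72, OLFM4, a granule glycoprotein of a neutrophil subset, by 8.34, and TREM1, a receptor that amplifies myeloid activation, by 7.71. BCL2A1, an antiapoptotic member of the BCL2 family, rose by 8.78 and IL1R2, the decoy receptor that binds interleukin 1 without signalling, by 7.45. MT2A, a metal-binding metallothionein, and CHI3L2, a chitinase-like secreted protein, rose by 7.72 and 7.52. BCL2A1 was at 8.12 without control 101. In none of these 15 genes did the exposed animals and controls overlap, which the choice of genes required.

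**Figure D1:**
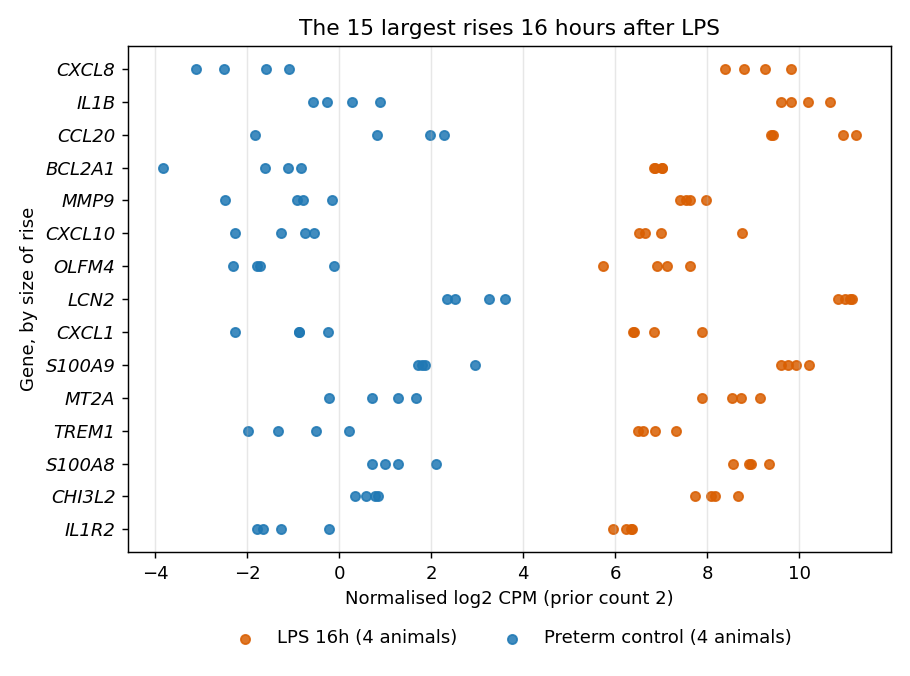
Normalised log2 CPM (horizontal axis, prior count of 2) of the 15 genes with the largest rise, 1 point per animal, with LPS 16h animals in orange and preterm controls in blue. The genes were taken from those with a symbol, an average of at least 4 counts in each group and no overlap. Every orange point lies to the right of every blue point in each row, and the gap is widest for CXCL8, at a log2 fold change of 11.14.

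A further group could hardly be seen in the controls and is given by level alone, since a fold against so few counts has no stable value. IL6, the cytokine that drives the acute phase response, stood at 109.7, 191, 144 and 252 CPM in the exposed animals and at 0.0435, 0.0463, 0.248 and 0.0364 CPM in the controls. TNF, the first cytokine of the LPS cascade, stood at 44.9, 23.6, 20.4 and 62.1 CPM against 0.131, 0, 0.213 and 0.218 CPM. IL1A, CSF3 (granulocyte colony-stimulating factor) and OSM (oncostatin M) averaged 123 ± 54.4, 49.8 ± 24.3 and 56.5 ± 19.8 CPM (SD, n = 4) after LPS and 0.0429 ± 0.0382, 0.0961 ± 0.0402 and 0.135 ± 0.0798 CPM in controls. MMP8, the neutrophil collagenase, and FPR2, a receptor for bacterial formyl peptides, averaged 100.4 ± 71.6 and 40.4 ± 13.4 CPM against 0.0177 ± 0.0355 and 0.0595 ± 0.0556 CPM. In all 7 the lowest exposed animal lay above the highest control, which the choice of genes required. For genes without a single count in 4 controls the exposed average is given over a floor of 3 counts in the control group. That ratio allows for counting error alone, not for the spread between animals, so it is not a lower bound on the change. MARCO, the scavenger receptor of alveolar macrophages, stood at 3.23, 6.36, 7.51 and 9.83 CPM, a ratio of 225 to that floor. CCL7, a monocyte chemoattractant, stood at 3.44, 6.41, 5.10 and 6.05 CPM, a ratio of 175.

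Genes that sense LPS rose in part. Of 18 tested members, 7 rose (38.9%) and 0 fell, against 8.25% and 6.11% of all genes. Their median log2 fold change was 0.52 against -0.09 over all genes. The coreceptor CD14 stood at 526, 638, 638 and 440.2 CPM against 28.6, 30.1, 30.4 and 43.5 CPM, a log2 fold change of 4.08 (SE 0.19, adjusted p = 6.35e-10). TLR4 itself stood at 102, 55.2, 62.0 and 51.0 CPM against 6.18, 5.42, 4.26 and 4.04 CPM, a log2 fold change of 3.71 (SE 0.23, adjusted p = 1.17e-08), and was highest in animal 026. TLR2, which senses bacterial lipoproteins, rose by 3.57 and the kinase IRAK2 by 3.50, and the adaptors TICAM1 (TRIF) and MYD88 rose by 1.55 and 1.5. LBP, the plasma protein that ferries LPS to CD14, had no count in any control and 0.177, 0.319, 0.464 and 0.727 CPM in the exposed lungs. The following members stayed short of the 2-fold threshold, with log2 fold changes of 0.85 for LY96, 0.53 for IRAK4, 0.04 for the ubiquitin ligase TRAF6 and 0.29 for the kinase IKBKB. TRIL, a leucine-rich accessory protein of TLR4, is not a member of that list and fell. It stood at 17.0, 14.0, 9.94 and 8.49 CPM against 176, 109.9, 147 and 108 CPM, a log2 fold change of -3.47 (SE 0.26, adjusted p = 8.83e-08). All 4 exposed values of TRIL lay below all controls, and TRIL was among the 15 largest falls chosen as described below.

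The brakes of NF-kB rose together with its subunits. Of 27 tested members of that list 25 rose, none fell, the median log2 fold change was 2.65, and in 27 every exposed animal exceeded every control, as in 16.9% of all genes. NFKBIA, the inhibitor that holds NF-kB in the cytoplasm and is its own target, stood at 1051, 1641, 1161 and 1385 CPM against 109, 91.9, 91.8 and 92.8 CPM, a log2 fold change of 3.75 (SE 0.15, adjusted p = 2.62e-10). ZC3H12A, the RNase that degrades cytokine messages, rose by 5.01, BIRC3, a ubiquitin ligase of the TNF receptor complex, by 4.75, and TNIP3, a partner of A20, by 4.04. ZFP36 (tristetraprolin), which destabilises TNF mRNA, rose by 3.81, and TNFAIP3, which encodes A20 itself, by 3.69. SOCS3, the feedback inhibitor of interleukin 6 signalling, stood at 966, 1350, 1160 and 870.1 CPM against 67.1, 56.9, 40.8 and 32.5 CPM, a log2 fold change of 4.50 (SE 0.37, adjusted p = 4.43e-07). Among the DNA-binding subunits the rises were 3.31 for RELB, 2.68 for NFKB2, 2.56 for REL and 2.44 for NFKB1, while RELA, at 0.82, passed on adjusted p (7.07e-05) but not on size. N4BP1, at 0.85, was the other member short of 2-fold, which it passed at 1.01 without animal 029.

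Chemokines were the list with the largest median. Of 24 tested, 21 rose and 1 fell, with a median log2 fold change of 5.04. CCL2, which recruits monocytes, stood at 483, 1329, 908 and 1377 CPM against 11.1, 10.7, 7.84 and 5.21 CPM, a log2 fold change of 6.81 (SE 0.37, adjusted p = 7.63e-09). CXCL6 and CXCL3, ligands of neutrophil receptors like CXCL8, rose by 6.30 and 5.65, and CCL3 (MIP-1α) by 5.85. CCL19, which guides cells bearing CCR7 to lymphoid tissue, stood at 71.0, 95.6, 172 and 104 CPM against 0.218, 0.0926, 0.0710 and 0.0728 CPM. Of the other 3 members, CXCL12, which retains progenitors in their niche, had a log2 fold change of 0.18 (adjusted p = 0.414), CCL21 one of 0.27, and CXCL14 fell by 1.43 on the log2 scale. The fall of CXCL14 no longer passed without exposed animal 035 (-0.91) or control 209 (-1.07).

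Of 26 cytokines tested, 22 rose and none fell. Beyond IL1B, IL6, TNF and the others above, LIF, of the interleukin 6 family, rose by 5.39 on the log2 scale, CSF1, the macrophage growth factor, by 4.25, and CSF2 (GM-CSF), which surfactant-clearing alveolar macrophages need, by 4.45. Antagonists rose too. IL1RN, the interleukin 1 receptor antagonist, stood at 609, 529, 504 and 504 CPM against 17.9, 12.2, 16.6 and 13.6 CPM, a log2 fold change of 5.16 (SE 0.27, adjusted p = 2.49e-09), and IL10 rose by 2.77. Not past the threshold were the epithelial alarmin IL33, at 0.53, and IL15, at 0.46, although IL15RA, its receptor chain, rose by 3.20. Among receptors 21 of 29 rose and none fell. CSF3R, the granulocyte growth factor receptor, rose by 4.08, IL18RAP by 4.01, IL1RL1, the receptor of interleukin 33, by 3.40 and OSMR by 2.96. The shared signal chain IL6ST (gp130), at 0.70, did not pass. Without control 092 the change of CSF2 was 3.69.

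**Figure D2:**
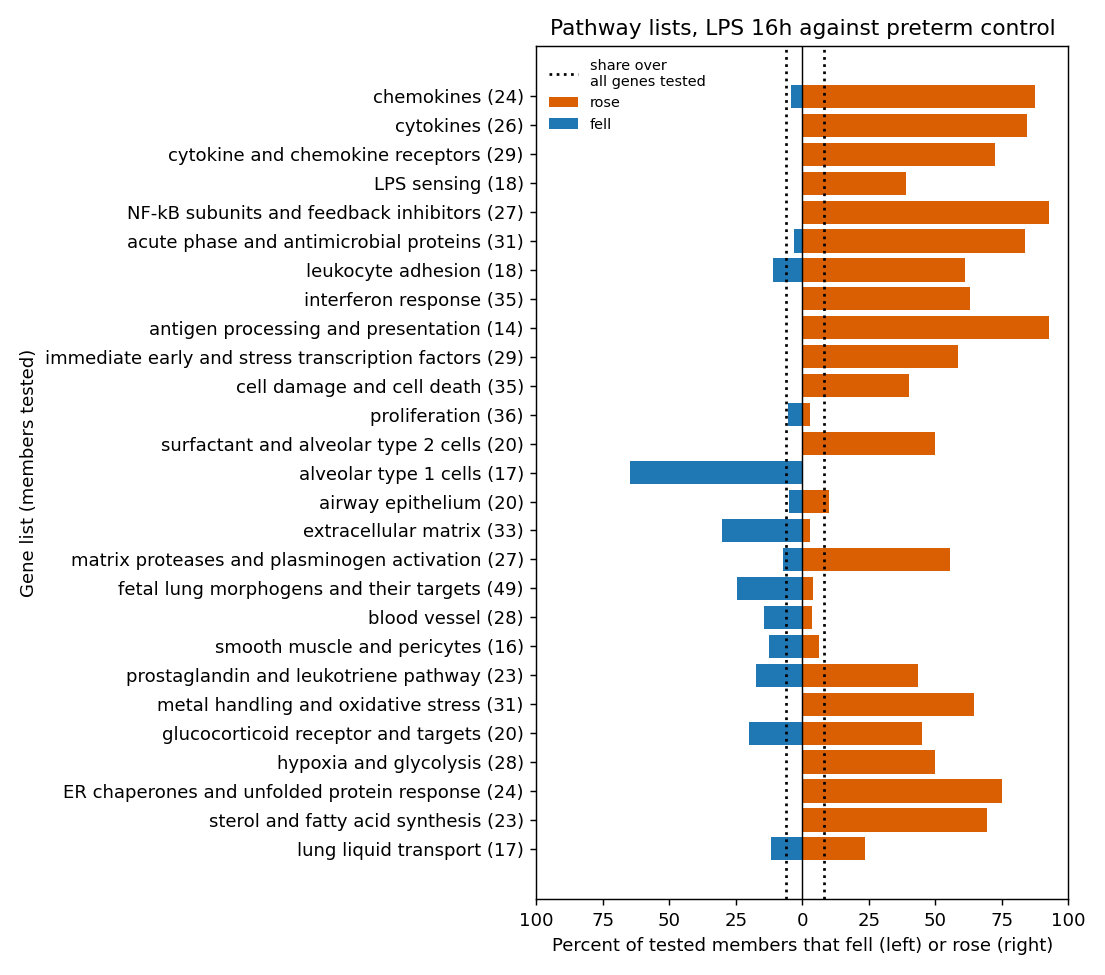
Share in percent of tested members of each of the 27 pathway lists that rose (orange, right) or fell (blue, left) 16 hours after LPS. The number in brackets is that of Ensembl IDs tested. Dotted lines mark the shares over all genes tested, 8.25% risen and 6.11% fallen, and alveolar type 1 genes are the list with the greatest share of falls, at 64.7%.

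Acute phase and antimicrobial genes had the next largest median of the pathway lists. 26 of 31 tested rose, 1 fell, and the median log2 fold change was 3.52. PTX3, a pentraxin that tissue cells make on interleukin 1 or TNF, stood at 299, 567, 504 and 812 CPM against 3.53, 3.47, 3.05 and 3.13 CPM, a log2 fold change of 7.26 (SE 0.27, adjusted p = 2.47e-10). Its controls were within a narrow band, and its exposed values spread by less than 3-fold. CHI3L1 (YKL-40) rose by 7.24. SERPINA3, the inhibitor of cathepsin G, stood at 282, 431, 292 and 315 CPM against 1.74, 3.47, 0.248 and 36.0 CPM, a log2 fold change of 6.79 (SE 1.17, adjusted p = 5.79e-04), with control 209 well above the other controls. CAMP, which encodes the cathelicidin LL-37, rose by 5.55, and PI3 (elafin) and SLPI, inhibitors of neutrophil elastase, by 5.17 and 4.08. Serum amyloid A, a liver acute phase protein, was low in the lung, with SAA1 at 1.49, 2.23, 1.69 and 3.58 CPM. Complement rose with CFB, C1R, C1S and C3 at 4.21, 2.94, 2.91 and 2.32. LYZ, at 0.49, did not pass, and the member that fell was FGG, the fibrinogen γ chain, at -1.06 with overlapping groups. FGG lost its call without 026, 035, 038, 101 or 113, at -1.05 to -0.81, and SERPINA3 went to 5.73 without control 113 and 8.0 without control 209.

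Genes of metal handling and oxidative defence rose in 20 of 31 tested, none fell, and the list's median was 1.52. SOD2, the manganese superoxide dismutase of mitochondria and an NF-kB target, stood at 6011, 6776, 6823 and 8663 CPM against 84.5, 69.7, 91.8 and 80.0 CPM, a log2 fold change of 6.43 (SE 0.13, adjusted p = 1.41e-13). Spread among the exposed animals was small beside this change, since the highest was less than 1.5 times the lowest. MT1X, another metallothionein, rose by 4.31, the zinc importers SLC39A8 and SLC39A14 by 3.64 and 3.15, GPX3, a secreted glutathione peroxidase, by 4.0, and the haem-degrading enzyme HMOX1 by 3.25.

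Markers of neutrophils and of monocytes and macrophages rose over the same 16 hours. The 20 tested neutrophil markers summed to 2058 to 2628 CPM in the exposed animals and 66.6 to 103 CPM in the controls, and 17 of them rose, with PROK2 at 0 in every control. S100A9 and S100A8 made up much of the exposed sum, at averages of 955 and 504 CPM. FPR1, a formyl peptide receptor, rose by 7.01 and the oxidase subunit NCF4 by 3.12. The receptor CXCR2 stood at 16.3, 16.8, 13.6 and 8.43 CPM against 4.75, 16.0, 19.1 and 17.2 CPM, a log2 fold change of 0.08 (SE 0.39, adjusted p = 0.890), so its groups overlapped. Primary granule genes, which neutrophils transcribe only as marrow precursors, did not pass either, with MPO at 0.26 and ELANE at -0.84. Several markers in this list, the S100 genes and LTF among them, also stand in other lists here, so those lists are not independent of it.

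Of 21 monocyte and macrophage markers 15 rose, and their sum went from 192 to 317 CPM in controls to 1140 to 1319 CPM after LPS. CD14 made up much of the sum after LPS, at an average of 560 CPM. CD163, the haemoglobin scavenger receptor, stood at 131, 73.1, 62.4 and 118 CPM against 11.1, 4.40, 9.05 and 7.21 CPM, a log2 fold change of 3.60 (SE 0.30, adjusted p = 3.62e-07). FCGR1A, the high affinity IgG receptor, rose by 4.24 and FCER1G by 3.44. Smaller values were found for other members, with rises of 1.21 for C1QB, 1.12 for C1QC and 1.13 for MRC1, while C1QA, at 0.39, and VSIG4, at -1.02, did not pass. MRC1 lost its call without 026, 038, 101 or 209, at 0.89 to 1.11, C1QC without 029, at 1.00, and both under total count scaling, while VSIG4 fell, at -1.28, without 038. Lymphocyte markers rose in 2 of 21 (9.52%) and fell in 1 (4.76%), close to the 8.25% and 6.11% of all genes. GZMB, a cytotoxic granule protease, rose by 1.89 and CD3D by 1.34, while LCK fell by 1.53 on the log2 scale and CD3E was at 0.20. None of 11 erythroid markers passed, and their summed CPM of 213 to 664 overlapped the controls' 221 to 672. Of the lists given so far, the chemokine, cytokine, receptor and antimicrobial genes are also made by these leukocytes, and the part of the leukocyte markers' change in them was not tested.

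Markers of other cells and tissues that a piece of lung can carry were read against the shares over all genes, 8.25% risen and 6.11% fallen. Of 10 epithelial markers 1 rose, and their sum, 7336 to 15450 CPM after LPS, overlapped the controls' 6746 to 9760 CPM. Platelet markers summed to 40.1 to 51.3 CPM against 22.6 to 34.6 CPM, with TREML1 the one that rose, by 3.85. Among mast cell and eosinophil markers HDC, which makes histamine, rose by 1.75 with overlapping groups. The mesothelial list had 1 rise, LRRN4, and 1 fall, UPK3B, and the thymus and oesophagus list 1 fall, KRT4, among 6 and 5 tested. In the nerve and Schwann cell list 1 of 7 fell. Airway cartilage markers fell in 2 of 10 (20%), MATN3 and COL9A1, and summed to 99.9 to 175 CPM against 153 to 426 CPM. Several of these calls hung on single animals, since HDC lost its call without 026, 038, 092, 101 or 113 (1.23 to 1.76) and COL9A1 without 026, 035, 038, 092 or 209 (-0.97 to -0.83), and KRT4 was at -1.55 without 209 against -2.27 with it.

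**Figure D3:**
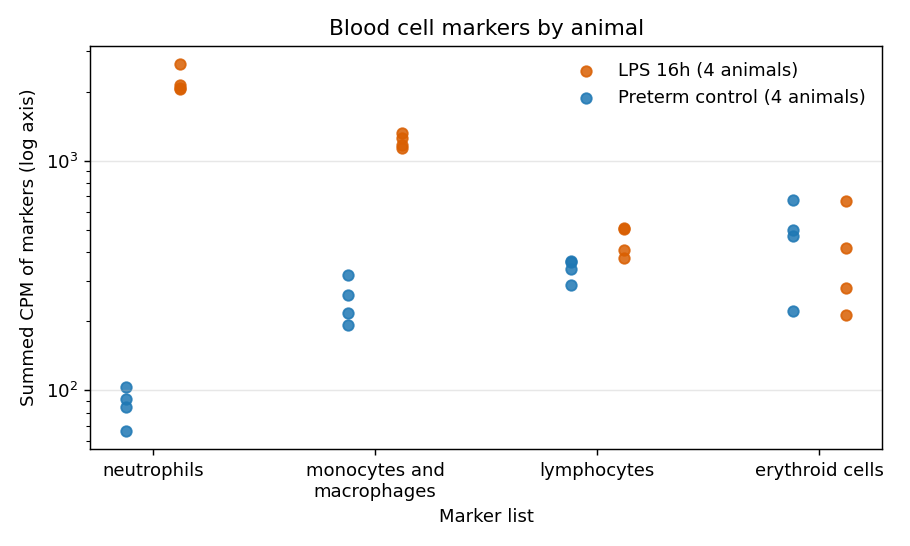
Summed CPM of the tested markers of 4 blood cell lists (log axis), 1 point per animal, with LPS 16h animals in orange and preterm controls in blue. Neutrophil sums lie at 2058 to 2628 CPM after LPS against 66.6 to 103 in controls, while the erythroid sums of the groups overlap. After LPS, S100A9 and S100A8 make up much of the neutrophil sums and CD14 much of the monocyte and macrophage sums.

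Most of the tested molecules that leukocytes use to leave the blood rose. Whole lung RNA does not show which cells made them. SELE, an inducible selectin of endothelium, stood at 20.6, 61.6, 43.9 and 141 CPM against 0.348, 0.695, 0.923 and 0.437 CPM, a log2 fold change of 6.39 (SE 0.51, adjusted p = 2.09e-07). It was highest in animal 038, which was also highest for CXCL8 and IL1B. VCAM1 and ICAM1, the ligands of leukocyte integrins, rose by 4.55 and 2.70. The integrin chain ITGAM (CD11b) rose by 3.49 and CD44 by 3.27. In all 11 of 18 tested adhesion genes rose (61.1%) and 2 fell (11.1%), against 8.25% and 6.11% of all genes. Those that fell were ITGA4 and ICAM4, at -1.26 and -1.13. Constitutive junction genes did not pass, with PECAM1 at -0.26. The vessel list had 1 rise (3.57%) and 4 falls (14.3%) among 28 tested, against 8.25% and 6.11% of all genes, with CDH5, the cadherin of endothelial junctions, at -0.23. Among those that fell, VEGFD, a ligand of the lymphatic VEGF receptor, stood at 31.8, 36.0, 23.4 and 37.3 CPM against 292, 198, 227 and 157 CPM, a log2 fold change of -2.75 (SE 0.21, adjusted p = 7.89e-08), with no overlap. KDR, the main VEGF receptor of endothelium, fell by 1.18 on the log2 scale, the apelin receptor APLNR by 1.22 and the transcription factor SOX17 by 1.16. VEGFA, at -0.26, did not pass. ICAM4 was short of 2-fold without animal 026 (-0.96) and SOX17 without 035 (-0.92).

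Interferon genes rose, but unevenly among the exposed animals. 22 of 35 tested rose, none fell, and the median was 1.14. IDO1, which degrades tryptophan, rose by 4.50, OASL by 3.75 and the transcription factor IRF1 by 3.07. CXCL10, a chemokine for activated T cells, stood at 91.4, 100.3, 431 and 129 CPM against 0.348, 0.139, 0.532 and 0.619 CPM, and ISG15, a ubiquitin-like protein, stood at 22.1, 14.2, 76.9 and 13.4 CPM against 7.66, 7.96, 6.74 and 7.39 CPM, a log2 fold change of 1.67 (SE 0.41, adjusted p = 0.00517). MX1, an antiviral GTPase, stood at 204, 116, 536 and 119 CPM against 71.4, 89.7, 114 and 56.5 CPM, a log2 fold change of 1.30 (SE 0.40, adjusted p = 0.0207). In all 3 genes animal 035 was the highest, and its MX1 was more than 2 times that of any other animal while those of 029 and 038 lay just above the highest control. The median difference of the whole list from the control mean was 1.22, 0.60, 1.97 and 0.57 in the 4 exposed animals. Other classical targets of type I interferon did not pass, with IFIT1 at 0.41 and OAS2 at 0.56. MX1 lost its call without exposed animal 035 (0.84) or control 209 (1.13), and OASL stood at 4.38 without 038.

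Antigen processing genes rose in all but 1 entry. Of 14 Ensembl IDs tested, which stood for 13 symbols, 13 rose and none fell. The immunoproteasome subunits PSMB10, PSMB8 and PSMB9 rose by 2.53, 2.46 and 2.28, CD74, the invariant chain of class II molecules, by 2.06, and B2M, the light chain of class I, by 1.47. CIITA and NLRC5, the master regulators of class II and class I genes, rose by 2.46 and 2.05. The list's median difference from the control mean was 2.15, 1.61, 1.88 and 1.59 in the exposed animals, a narrower range than that of the interferon list.

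In the prostaglandin and leukotriene list 10 of 23 tested members rose (43.5%) and 4 fell (17.4%), against 8.25% and 6.11% of all genes. PTGS2 (cyclooxygenase 2), the inducible first enzyme, stood at 96.7, 68.3, 67.8 and 85.1 CPM against 7.92, 6.85, 5.82 and 5.79 CPM, a log2 fold change of 3.57 (SE 0.20, adjusted p = 4.73e-09). PTGES, the inducible prostaglandin E synthase, rose by 2.43, the phospholipase PLA2G4A by 2.01 and the receptor PTGER4 by 2.56. HPGD, which inactivates prostaglandin E, stood at 308, 251, 199 and 247 CPM against 751, 652, 769 and 699.9 CPM, a log2 fold change of -1.53 (SE 0.24, adjusted p = 1.38e-04), and PTGS1, the constitutive cyclooxygenase, fell by 1.63 on the log2 scale. No exposed animal reached a control's level of HPGD. On the leukotriene arm ALOX5AP and ALOX5, both abundant in neutrophils and macrophages, rose by 5.32 and 3.73, and LTC4S fell by 1.59.

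Genes that cut or protect matrix rose in 15 of 27 tested (55.6%) and fell in 2 (7.41%), against 8.25% and 6.11% of all genes. TIMP1, an inhibitor of metalloproteinases, stood at 791, 1775, 1552 and 1403 CPM against 76.9, 70.5, 60.1 and 56.0 CPM, a log2 fold change of 4.34 (SE 0.20, adjusted p = 6.35e-10). Its relative TIMP3, which is bound to matrix, fell by 1.42 on the log2 scale, and TIMP2 was at -0.88, passing as a fall under total count scaling. The collagenase MMP1 rose by 5.50 and MMP7, an epithelial matrilysin, by 4.2, while the mesenchymal gelatinase MMP2 was at -0.58. Plasminogen activation rose on each side, with the urokinase receptor PLAUR at 3.65 and the inhibitor SERPINB2 (PAI-2) at 5.28. Tissue factor, F3, rose by 2.92. Without animal 035 the change of MMP1 was 6.26.

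Stress and immediate early transcription factors rose in part. Of 29 tested 17 rose (58.6%) and none fell, against 8.25% and 6.11% of all genes. BATF, an AP-1 partner of activated leukocytes, rose by 5.2, the early response gene IER3 by 4.05, CEBPD, a driver of acute phase genes, by 3.22, and EGR3 by 3.19. FOS and JUN, AP-1 subunits that respond within minutes to many stimuli, were spread widely among the controls. FOS stood at 152, 344, 102 and 104 CPM against 128, 36.6, 5.11 and 21.4 CPM, a log2 fold change of 2.51 (SE 0.99, adjusted p = 0.0624), and JUN stood at 176, 282, 169 and 198 CPM against 368, 357, 136 and 105 CPM, a log2 fold change of -0.04 (SE 0.43, adjusted p = 0.951). For both genes exposed and control animals overlapped, and controls 092 and 101 were above controls 113 and 209. Without control 092 FOS passed, at 3.26.

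JUN and FOS belong to a set of transcription factors that the study named for this time point. It predicted them, from binding sites, to regulate gene clusters that LPS and betamethasone alone changed alike. That prediction did not rest on the factors' own mRNA, which is what is given here. Of the others described here none passed the 2-fold threshold. SRF and TFEB had log2 fold changes of 0.40 (SE 0.14, adjusted p = 0.0373) and 0.60 (SE 0.21, adjusted p = 0.0338), and MAF one of -0.57 (SE 0.14, adjusted p = 0.00596). For MZF1 and SUZ12 they were -0.46 (SE 0.19, adjusted p = 0.0670) and -0.30 (SE 0.17, adjusted p = 0.176).

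Genes of cell damage and cell death rose in 14 of 35 tested (40%) and none fell, against 8.25% and 6.11% of all genes. Their median was 0.72. The list also holds survival genes, and the member that rose the most was the antiapoptotic BCL2A1 given above. TNFRSF10B, a death receptor for TRAIL, rose by 2.29, the nuclease AEN by 2.06, the kinase PLK3 by 1.77, ZMAT3 by 1.71 and CDKN1A, the p21 inhibitor of the cell cycle, by 1.69. Other members did not pass, since the ubiquitin ligase MDM2 was at 0.13, BBC3 (PUMA) at -0.36 and BAX at 0.57. SESN1 was at -0.94 (adjusted p = 2.93e-04), which is opposite in sign to CDKN1A. GSDMD and MLKL, which open pores in pyroptosis and necroptosis, rose by 1.13 and 1.24. GSDMD was short of 2-fold without animal 035, at 0.94, and under total count scaling, and SESN1 passed as a fall without control 101, at -1.03.

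Of 36 proliferation genes tested 1 rose (2.78%) and 2 fell (5.56%), against 8.25% and 6.11% of all genes, with a median of -0.24. MKI67, the protein marking cycling cells, stood at 37.2, 21.9, 43.3 and 53.4 CPM against 41.7, 28.6, 44.9 and 37.8 CPM, a log2 fold change of -0.02 (SE 0.23, adjusted p = 0.947). TOP2A, which untangles DNA before mitosis, was at -0.44, and in both the groups overlapped. The 2 that fell were CCND1 and E2F1. CCND1 (cyclin D1) stood at 238, 239, 198 and 254 CPM against 535, 494, 568 and 544 CPM, a log2 fold change of -1.21 (SE 0.13, adjusted p = 4.40e-06), and E2F1 fell by 1.14 on the log2 scale, or by just under 2-fold (-0.97) without animal 029.

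Of the list of endoplasmic reticulum chaperones and unfolded protein response genes, 18 of 24 tested rose, none fell and the median was 1.52. In 20 of them the exposed animals all exceeded the controls, as in 16.9% of all genes. HSPA5 (BiP), the main chaperone of the compartment, stood at 1382, 2453, 1469 and 2266 CPM against 369, 358, 481 and 493 CPM, a log2 fold change of 2.12 (SE 0.18, adjusted p = 3.86e-07). CRELD2, HYOU1 and SDF2L1, further luminal folding proteins, rose by 3.58, 2.58 and 2.49, and XBP1, a transcription factor of this response, by 2.23. DDIT3 (CHOP), its proapoptotic factor, was at 0.40 and ATF4 at 0.40, neither of which passed.

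Of 23 tested genes of sterol and fatty acid synthesis 16 rose, none fell, and the median was 1.69. HMGCS1, at the head of the mevalonate pathway, stood at 438, 249.7, 212 and 484 CPM against 67.9, 49.5, 56.8 and 47.6 CPM, a log2 fold change of 2.57 (SE 0.23, adjusted p = 6.51e-07). Animals 026 and 038 were above the other exposed animals, and all 4 exceeded every control. DHCR7, which makes cholesterol in the last step of its synthesis, rose by 2.75 and IDI1, an isomerase of the mevalonate pathway, by 2.73. Among genes of fatty acid synthesis, SCD rose by 2.32, and FASN and ACACA were at 0.77 and 0.74. Without animal 029 ACACA passed, at 1.09.

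Glycolytic and hypoxia genes rose in 14 of 28 Ensembl IDs tested (50%) and none fell, against 8.25% and 6.11% of all genes. The glucose transporter SLC2A3 rose by 2.67, LDHA, which makes lactate, by 2.39, HK2 by 2.29 and HIF1A by 1.51. Glucocorticoid responsive genes were mixed, with 9 rises (45%) and 4 falls (20%) among 20, against 8.25% and 6.11% of all genes. FKBP5, a cochaperone of the receptor, rose by 2.14 and ANGPTL4 by 3.51, but TSC22D3 (GILZ), one of its best known targets, was at -0.74 and did not pass. HSD11B2, which inactivates cortisol, fell by 1.96 on the log2 scale.

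In the distal epithelium, type 2 and type 1 cell genes went in opposite directions. Of 20 tested surfactant and type 2 genes 10 rose and none fell, with a median of 1.01. ABCA3, the transporter that loads phospholipid into lamellar bodies, stood at 819.9, 763, 782 and 655 CPM against 174, 159.8, 190.2 and 239.9 CPM, a log2 fold change of 1.99 (SE 0.18, adjusted p = 4.83e-07). LAMP3, a lamellar body membrane protein, stood at 385, 169, 318 and 248 CPM against 35.0, 36.6, 78.7 and 109 CPM, a log2 fold change of 2.22 (SE 0.41, adjusted p = 7.06e-04). For both the exposed animals lay clear of the controls. CTSH and NAPSA, which process surfactant proteins, rose by 2.16 and 1.22, and SFTPD, a host defence collectin, by 1.01. The surfactant proteins that lower surface tension did not pass, since SFTPB was at 0.56 (SE 0.19, adjusted p = 0.0270) and SFTPC at 0.55 (SE 0.37, adjusted p = 0.258). SFTPA1 stood at 8180, 4034, 2283 and 1567 CPM against 955, 931, 2571 and 1795 CPM, a log2 fold change of 1.21 (SE 0.54, adjusted p = 0.0946), with animal 026 far above 038 and with overlap. NKX2-1, the lineage factor of lung epithelium, was at -0.55 (SE 0.18, adjusted p = 0.0228). SFTPD was short of 2-fold without 026, 029, 092 or 101, at 0.86 to 0.96, and under total count scaling, and SFTPA1 passed without 038, at 1.59.

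Alveolar type 1 genes fell. Of 17 tested none rose, 11 fell and the median was -1.49. In 12 all exposed animals were below all controls, as in 16.9% of all genes. AQP5, a water channel of type 1 cells, stood at 11.8, 41.0, 11.4 and 17.0 CPM against 74.0, 111, 77.8 and 132 CPM, a log2 fold change of -2.45 (SE 0.44, adjusted p = 5.88e-04). Animal 029 kept the highest of the exposed values, still below each control. CAV1, the coat protein of caveolae in type 1 cells and endothelium, stood at 686, 659, 544 and 667 CPM against 2165, 2127, 2276 and 1680 CPM, a log2 fold change of -1.69 (SE 0.14, adjusted p = 2.53e-07). CLIC5, CAV2 and SEMA3E fell by 1.94, 1.75 and 1.74 on the log2 scale, COL4A3, a chain of the alveolar basement membrane, by 1.67, and HOPX by 1.34. AGER, a defining marker of the type, was at -0.74 (SE 0.32, adjusted p = 0.0852) and PDPN at 0.10 (SE 0.18, adjusted p = 0.708), and both overlapped.

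Of 20 airway epithelial genes tested 2 rose (10%) and 1 fell (5%), close to the 8.25% and 6.11% of all genes. CALCA, the neuroendocrine calcitonin gene that also gives procalcitonin in sepsis, stood at 2.56, 2.66, 1.21 and 2.44 CPM against 0.174, 0.648, 0.177 and 0.255 CPM, a log2 fold change of 2.67 (SE 0.52, adjusted p = 9.45e-04). ELF3, an epithelial transcription factor induced by NF-kB, rose by 1.28. Control 209 stood apart in the secretory genes, with SCGB3A1 at 1.78, 4.49, 1.24 and 203 CPM in the 4 controls against 0.958, 9.33, 9.80 and 1.40 CPM in the exposed animals, and the median of its airway cartilage markers was also the highest of the 8. In genes of liquid transport 4 of 17 rose (23.5%) and 2 fell (11.8%), against 8.25% and 6.11% of all genes. SLC26A4 (pendrin), a chloride and iodide exchanger, rose by 3.52, the chloride channel CFTR by 1.88 and the sodium pump subunit ATP1B1 by 1.07. The subunits of the sodium channel that clears fluid at birth did not pass, with SCNN1A, SCNN1B and SCNN1G at -0.81, -1.22 and -0.82. All 3 passed as falls under total count scaling, SCNN1B also without animal 029, at -1.44, and ATP1B1 was short of 2-fold without 038 (0.93) or 092 (0.99) and under total count scaling.

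**Figure D4:**
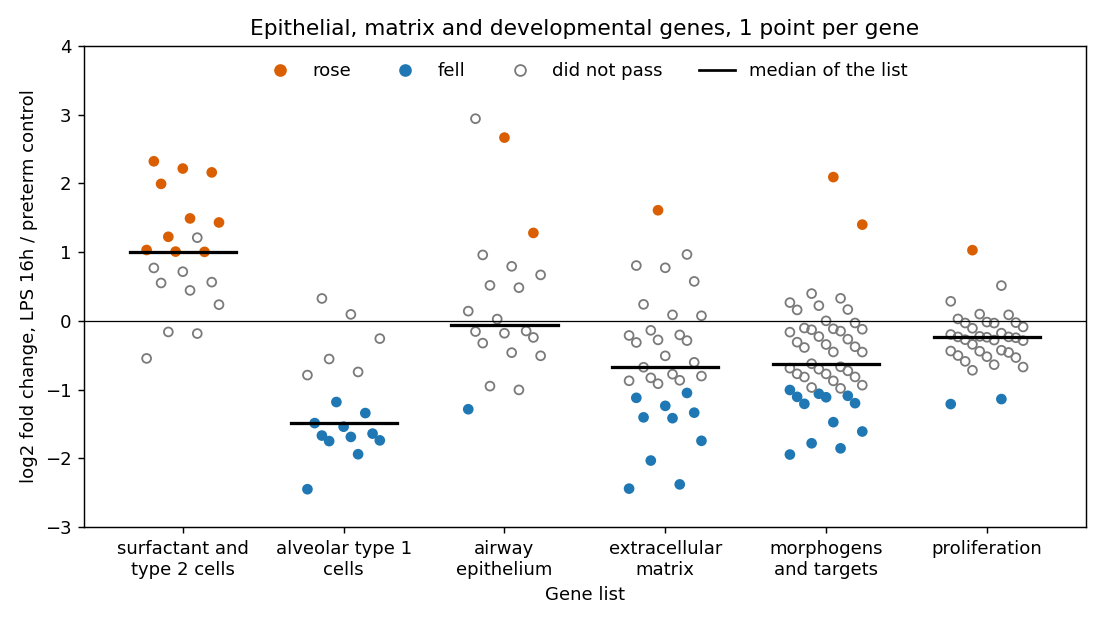
Log2 fold change of LPS 16h over preterm control (vertical axis) for each tested gene of 6 lists, 1 point per gene, filled where the gene rose or fell and open where it did not pass, with a bar at the median of the list. Type 2 genes lie mostly above 0 with a median of 1.01, and type 1 genes mostly below it with a median of -1.49.

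The extracellular matrix list had 10 falls and 1 rise among 33 tested, and a median of -0.67. These were 30.3% and 3.03%, against 6.11% and 8.25% of all genes. ELN (elastin), the core of the fibre, stood at 1045, 1335, 1092 and 999 CPM against 2690, 2648, 2572 and 3364 CPM, a log2 fold change of -1.33 (SE 0.12, adjusted p = 3.86e-07). FBLN5, which assembles elastin onto microfibrils, stood at 47.7, 80.7, 25.5 and 40.5 CPM against 249.5, 222, 253 and 246 CPM, a log2 fold change of -2.44 (SE 0.23, adjusted p = 1.13e-06). In both genes every exposed animal was below every control, and animal 035 was the lowest for FBLN5. The microfibril proteins MFAP5, MFAP2 and MFAP4 fell by 2.03, 1.74 and 1.05 on the log2 scale, and OGN, a small proteoglycan, by 2.38. The fibrillar collagens COL1A1 and COL3A1 were at -0.21 (SE 0.29, adjusted p = 0.606) and -0.86 (SE 0.19, adjusted p = 0.00222). The member that rose was VCAN (versican), a proteoglycan of provisional matrix, by 1.61. In smooth muscle 2 of 16 fell (12.5%) and 1 rose (6.25%), against 6.11% and 8.25% of all genes. CNN1 and CSPG4 fell by 1.30 and 1.16, DES rose by 1.71, and ACTA2 was at -0.85. MFAP5 lost its call without 026, 035 or 209, at -1.94 to -1.69, MFAP4 without 035 or 092, at -0.95 to -0.81, and CNN1 without 035, at -1.06, while COL3A1 and ACTA2 passed as falls under total count scaling.

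Morphogens of the fetal lung fell in 12 of 49 tested members (24.5%) and rose in 2 (4.08%), against 6.11% and 8.25% of all genes. Their median was -0.62, and in 26 every exposed animal was below every control, as in 16.9% of all genes. SHH, which distal epithelium sends to the mesenchyme, stood at 21.7, 30.8, 18.3 and 14.8 CPM against 73.9, 61.2, 60.8 and 57.4 CPM, a log2 fold change of -1.61 (SE 0.19, adjusted p = 8.44e-06). Its targets moved with it in sign, PTCH1 falling by 1.00 on the log2 scale and GLI1 standing at -0.98 (adjusted p = 0.0221), just short of 2-fold. TCF21, a transcription factor of lung fibroblast progenitors, stood at 48.9, 55.1, 35.1 and 32.2 CPM against 175, 169, 198 and 115 CPM, a log2 fold change of -1.94 (SE 0.18, adjusted p = 7.27e-07). BMP7, DKK3, FGF9 and FGFR3 fell by 1.85, 1.78, 1.47 and 1.21. The branching signal FGF10, at 0.33, did not pass. Those that rose were IGFBP3 and FGF7 (keratinocyte growth factor), a mitogen of type 2 cells, by 2.09 and 1.40. Calls near 2-fold hung on single animals: PTCH1 was at -0.66 without 029 and -0.93 without 113, FGFR3 at -0.99 without 038, and GLI1 passed, at -1.20 to -1.02, without 035, 038, 092 or 209.

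The 15 largest falls were taken, like the rises, from genes with a symbol, at least 4 counts on average in each group and no overlap. They also had at least 1 CPM in the higher group. These falls were smaller and more scattered than the rises. MS4A15, a membrane protein of the MS4A family, stood at 0.355, 0.425, 0.0464 and 0.0581 CPM against 3.79, 1.53, 4.61 and 6.08 CPM, a log2 fold change of -3.95 (SE 0.64, adjusted p = 2.36e-04). NMNAT2, which makes NAD in axons, stood at 2.31, 0.931, 1.14 and 1.28 CPM against 16.9, 17.1, 18.9 and 19.3 CPM, a log2 fold change of -3.69 (SE 0.25, adjusted p = 2.49e-08). Controls of NMNAT2 lay within a narrow band, well above the exposed animals. WNT7A, a Wnt ligand, and CHRNA2, a nicotinic receptor subunit, fell by 3.60 and 3.54 on the log2 scale. After TRIL came SMPX, a small muscle protein, SERTM1, the kinesin KIF12 and the ADP receptor P2RY12, at -3.16, -3.13, -3.07 and -3.06. The rest were ITGBL1 at -3.03, INSC, which orients the mitotic spindle, at -2.97, the matrix protein SPON2 at -2.96, BIRC7, an inhibitor of apoptosis, at -2.93, the hemicentin HMCN2 at -2.93 and CCDC190 at -2.91. Many of them were low in the exposed lungs, at an average of 0.221 ± 0.197 CPM (SD, n = 4) for MS4A15 and 0.174 ± 0.107 CPM for SERTM1.

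The LPS 5d animals received the same dose and share no animal with the 16 hour group, although both are set against the same preterm controls. The direct test of 16 hours against 5 days called 1524 genes higher at 16 hours (7.94%) and 1278 lower (6.66%). Against the controls, 500 genes were higher at 5 days (2.6%) and 430 lower (2.24%). CXCL8 stood at 5.63, 3.61 and 5.08 CPM in the 3 LPS 5d animals, a log2 difference between 16 hours and 5 days of 6.82 (SE 0.50, adjusted p = 2.02e-07). It was thus far below its 16 hour level and still above the controls, with a log2 fold change of 4.32 at 5 days. PTX3 stood at 4.76, 4.34 and 3.47 CPM at 5 days, against 3.53, 3.47, 3.05 and 3.13 CPM in controls, a log2 difference of 6.93 (SE 0.29, adjusted p = 2.51e-09). MMP9, at 72.8, 28.6 and 29.5 CPM, did not differ past the threshold between the times, at 2.34 (SE 0.90, adjusted p = 0.0612).

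Other lists had calls against the controls at 16 hours and none at 5 days. In the chaperone and sterol lists no member was called in either direction at 5 days, against 2.6% higher and 2.24% lower of all genes. Higher at 16 hours than at 5 days were 18 of 24 and 13 of 23 members, against 7.94% of all genes. HSPA5 stood at 357, 319 and 264 CPM at 5 days, a log2 difference of 2.56 (SE 0.20, adjusted p = 2.23e-07), and HMGCS1 at 33.6, 48.7 and 45.6 CPM, a log2 difference of 2.95 (SE 0.25, adjusted p = 5.56e-07). Of the type 1 list 12 of 17 were lower at 16 hours than at 5 days, against 6.66% of all genes. None of that list was called against the controls at 5 days. AQP5 was back at 122, 125 and 128 CPM, a log2 difference of -2.83 (SE 0.47, adjusted p = 3.86e-04). CAV1 was still at -0.74 against the controls (adjusted p = 0.00468), short of 2-fold. The mesenchymal genes given here were mixed. TCF21 was at 155, 177 and 177 CPM, a log2 difference of -2.02 (SE 0.19, adjusted p = 1.74e-06), and FBLN5 at 205, 191 and 214 CPM, a log2 difference of -2.18 (SE 0.25, adjusted p = 1.02e-05). OGN and BMP7 were still lower than controls at 5 days, at -1.63 and -1.42. Of 33 matrix genes 3 were lower at 16 hours than at 5 days and 3 higher, and of 49 morphogen genes 10 and 6. Over all genes 6.66% were lower and 7.94% higher, and the matrix counts were close to those shares.

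In all, 18 of 36 proliferation genes were lower than controls at 5 days, and 12 were higher at 16 hours than at 5 days. Over all genes these shares were 2.24% and 7.94%. TOP2A stood at 11.9, 11.9 and 11.4 CPM at 5 days, a log2 difference of 1.45 (SE 0.25, adjusted p = 3.40e-04). SFTPA1 stood at 3790, 10850 and 6233 CPM at 5 days, with a log2 fold change over controls of 2.16 then against 1.21 at 16 hours, and the difference between the times was -0.95 (SE 0.58, adjusted p = 0.235). ABCA3 was at 369.5, 604 and 403 CPM and SFTPD at 2000, 2739 and 2082 CPM, with differences of 0.75 (SE 0.19, adjusted p = 0.00676) and -0.40 (SE 0.22, adjusted p = 0.188), neither past the 2-fold threshold. Likewise HPGD, at 189, 188 and 275 CPM, had not returned, with a difference of 0.22 (SE 0.26, adjusted p = 0.550).

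**Figure D5:**
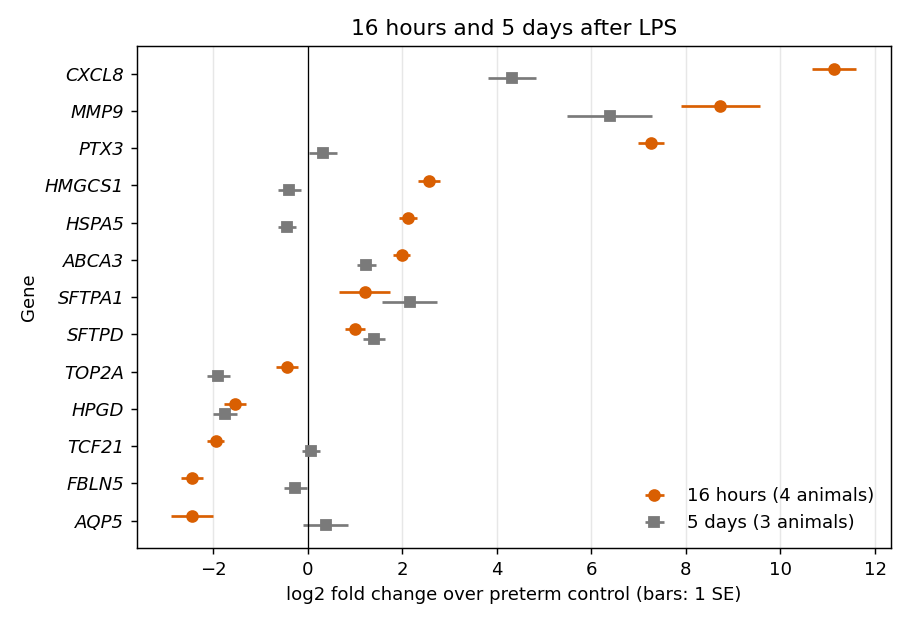
Log2 fold change over the shared preterm controls 16 hours (orange) and 5 days (grey) after LPS for 13 genes, with bars of 1 SE. CXCL8 goes from 11.14 to 4.32, HSPA5 from 2.12 to -0.44, AQP5 from -2.45 to 0.38 and TOP2A from -0.44 to -1.89.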

How the data were processed

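Left lung RNA was sequenced from poly(A) libraries as paired-end reads. The authors assigned the reads to the rhesus build Mmul_10 with kallisto, summed them to genes with tximport and deposited whole-number counts per gene (22515 Ensembl IDs, 16 animals). Tool versions and the annotation release were not given in the sources used here. DESeq2 was the authors' test.

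Libraries were put on 1 scale with TMM factors (trimmed mean of M values) and tested with limma 3.58.1 (R 4.3.3, trend and robust options) on log2 CPM with a prior count of 2, two-sided. The deposited table has bare numbers as column names, its unit could not be checked column by column, and a log-scale test was used in place of a count model. All 16 animals entered with 1 mean for each of 5 groups, and p-values were adjusted by Benjamini-Hochberg over 19199 genes that had 0.371 CPM in at least 2 animals and at least 15 counts in all. A gene was called at an adjusted p below 0.05 and at least 2-fold. The code was tested on simulated data.

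Libraries held 20169363 to 48052891 counts, and counting error was small beside the spread between animals. Replicates are separate animals, and no pair of libraries in a group agreed within counting error. The labels give neither sex nor run.

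Named were the 15 largest rises and falls with a symbol, a mean of at least 4 counts in each group, at least 1 CPM in the higher group and no overlap, up to 5 called genes per list and direction, the members a list is named for, and transcription factors the study named. Some named genes are not reported here. Other members, and which animals a gene depends on, were chosen after their values were seen. Members and lists were chosen with earlier results of these data known. Alternatives changed the scaling, filter, prior count, fold threshold, weights, covariate and animals used. Symbols came from a gene table that named 17256 IDs, and 66 symbols belong to several IDs. List members were counted by ID, so such a symbol can count more than once. This was so in the antigen processing list (14 IDs tested, 13 symbols), the hypoxia list (28 and 27) and the metal handling list. Coordinates and sequences are not used here.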

Additional observations from a re-analysis of the deposited data

Results flagged for a closer look

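Within each group of 4 animals, 43 of 628 sets of values, 1 set per named gene or list and group, held an animal set apart from the other 3 by Dixon's test at the 95% level, and chance alone gives about 1 in 20. Values are CPM unless stated, and the range of the other 3 animals of the group follows each. Exposed animal 026 stood below the other 3 in NFKB2 (335 against 504 to 518). In exposed animal 029 values above those of the rest were found for COL9A1 (99.7 against 56.4 to 58.5), WNT7A (0.957 against 0.371 to 0.436) and ZFP36 (1465 against 630.2 to 724). Exposed animal 029 stood below the other 3 in ACACA (39.4 against 91.5 to 100.4), FPR2 (20.4 against 46.0 to 48), IL6ST (437 against 706 to 746) and PTCH1 (26.6 against 61.4 to 71.8). In exposed animal 035 values above those of the rest were found for DES (233 against 83.8 to 92.5), PSMB8 (826 against 319 to 373) and SEMA3E (26.8 against 16.8 to 17.8). Exposed animal 035 stood below the other 3 in CALCA (1.21 against 2.44 to 2.66) and IL33 (172 against 206 to 212). In exposed animal 038 values above those of the rest were found for TNFAIP3 (744 against 526 to 540.5). Exposed animal 038 stood below the other 3 in SLPI (35.4 against 69.3 to 71.0). In control 092 values above those of the rest were found for C1QA (17.5 against 10.9 to 11.7), CLEC4E (0.218 against 0 in each), NFKBIA (109 against 91.8 to 92.8) and RELA (117 against 99.7 to 102). Control 092 stood below the other controls in CXCR2 (4.75 against 16.0 to 19.1). In control 101 values above those of the rest were found for MMP1 (1.48 against 0.911 to 0.958) and TNFRSF10B (14.3 against 10.4 to 10.8). Control 101 stood below the other controls in ALOX5 (1.06 against 2.00 to 2.05) and GPR84 (0 against 0.0355 to 0.0435). In control 113 values above those of the rest were found for CXCL12 (73.1 against 56.7 to 59.0), IL6 (0.248 against 0.0364 to 0.0463), MMP8 (0.0710 against 0 in each), S100A9 (7.74 against 3.22 to 3.57) and TOP2A (62.7 against 36.8 to 40.3). Control 113 stood below the other controls in MT1X (3.94 against 5.22 to 5.51). In control 209 values above those of the rest were found for CD14 (43.5 against 28.6 to 30.4), CXCL13 (0.0728 against 0 in each), ELN (3364 against 2572 to 2690), KRT4 (23.4 against 2.73 to 3.40), LYZ (149 against 36.1 to 43.4) and MFAP5 (2.33 against 0.784 to 0.923). Control 209 stood below the other controls in CAV2 (321 against 634 to 724), CCL3 (1.17 against 2.13 to 2.31), FGF10 (10.3 against 14.9 to 16.1) and HSD11B2 (11 against 21.8 to 23.0). For the matrix proteases and plasminogen activation list, the median log2 difference from the control mean was 1.18 in exposed animal 035 and 1.75 to 1.81 in the others of its group. For the lung epithelium list, the median log2 difference from the control mean was 0.61 in exposed animal 029 and -0.22 to -0.16 in the others of its group. For the airway cartilage list, the median log2 difference from the control mean was 1.29 in control 209 and -0.42 to -0.24 in the others of its group.

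Between 16 hours and 5 days, 8 of the 13 genes followed to 5 days differed past the threshold in the direct test of the exposed groups, which share no animals. The log2 difference was positive, higher at 16 hours, for CXCL8 (6.82), PTX3 (6.93), HSPA5 (2.56), HMGCS1 (2.95) and TOP2A (1.45). It was negative for AQP5 (-2.83), TCF21 (-2.02) and FBLN5 (-2.18).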

How the results depend on the processing

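Other scalings, filters, prior counts, weights, a gestational age covariate, the 8 animals alone, thinned libraries and each left-out animal kept the counts of genes changed within 1.5 times, with 1 exception among these: total count scaling gave 1936 falls in place of 1174. The age covariate was fitted with the term controls joined to the preterm controls, so that setting was not against the preterm controls alone. With no minimum fold change 7383 genes passed, 3559 higher and 3824 lower. Leaving out each animal gave 2447 to 2927 changed genes, 1488 to 1700 of them higher and 959 to 1227 lower, and 2563 to 2991 between 16 hours and 5 days. The median-of-ratios scaling gave 1671 rises and 1052 falls. Of 276 named genes 218 were called, and 195 of these kept their call and direction under all 19 settings. No called gene changed direction. 10 genes that had not passed did so, given here as log2 fold changes. Median-of-ratios scaling put JUN at 0.0056 and MKI67 at 0.024, and the 8 animals alone put them at 0.0022 and 0.021. Thinning put MKI67 at 0.0031. Total count scaling put CXCL12 at -0.024, CXCR2 at -0.12, MDM2 at -0.074, PDPN at -0.11 and TRAF6 at -0.16. In the 5 Y-rich libraries, chosen like the thinning after seeing the data, COL1A1 was at 0.026, PDPN at -0.032, SCGB3A1 at 0.50 and TRAF6 at -8e-04. With 1 animal left out JUN ranged from -0.37 to 0.23, MKI67 from -0.18 to 0.25, CXCR2 from -0.38 to 0.32, PDPN from -0.037 to 0.28, MPO from -0.097 to 0.79 and SCGB3A1 from -1.80 to 0.62. The cause was not tested. Of 27 pathway lists the airway epithelium alone changed the sign of its median, and without control 209 it was 0.63. The chemokine median was 3.87 without the filter on low counts. Age and depth differ between the groups, and sex and sequencing run, which the labels do not give, were not entered in the model. No paired analysis was possible because the labels give the groups no shared replicate numbers.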

Other observations

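Among the 59 genes with a symbol that rose, did not overlap and averaged under 4 counts in the controls, 5 outside the lists are given here by level, chosen after their values were seen. GPR84, a receptor for medium-chain fatty acids, stood at 90.5, 77.3, 109 and 83.1 CPM in the exposed animals and 0.0435, 0, 0.0355 and 0.0364 CPM in the controls. MCEMP1, a membrane protein of mast cells and myeloid cells, stood at 27.1, 19.0, 24.2 and 20.5 CPM against 0, 0, 0.0355 and 0.0364 CPM. FCAR, the IgA receptor, stood at 14.6, 11, 16.2 and 23.6 CPM against 0.0871, 0.0463, 0.106 and 0.0364 CPM, and CLEC4E (Mincle), a lectin that recognises mycobacterial glycolipid, at 13, 7.82, 10.7 and 13 CPM against 0.218, 0, 0 and 0 CPM. CXCL13, the B cell chemokine, reached 6.71, 2.66, 12.1 and 7.44 CPM against 0, 0, 0 and 0.0728 CPM.

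The 4 exposed animals differed from each other in which response was strongest. Animal 038 was highest for CXCL8, IL1B, CCL20, SELE and PTX3, and animal 035 for CXCL10, ISG15 and MX1. Interferon list medians ran from 0.57 in 038 to 1.97 in 035, while the neutrophil list ran from 2.94 in 038 to 3.85 in 035. Y-linked counts were 672 in animal 035 and 121 in animal 038, against 56 in control 209 and 19322 to 38401 in the other 5 of these 8 libraries. Of 2757 genes changed, 317 had no symbol and are not described.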
